A study of Homo sapiens with 5 samples.

Results

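MDA-MB-468 is an established human line of triple-negative breast cancer, grown from epithelial tumour cells. The cells described here are those of its 2 control samples, the HA control and the VPR control, which serve as the state of the line without a FOSL1 construct. A cell belongs to them if the authors' hashtag table assigned it to either control, if it had at least 1500 detected genes and if at most 20% of its UMIs (unique transcript tags) came from mitochondrially encoded genes. That rule kept 3380 of 3576 assigned cells (94.5%) in the HA control and 2595 of 2720 (95.4%) in the VPR control, 5975 cells in all and 40.8% of the 14642 cells kept from the whole series. The other 3 samples of the series, HA FOSL1, VPR FOSL1 gRNA2 and VPR FOSL1 gRNA3, are named for FOSL1, which encodes an AP-1 family protein that regulates transcription, and are used below only for comparison. All 5 samples were stained with hashtag antibodies, mixed and sequenced as 1 library with 3' tag chemistry. The labels do not spell out HA or VPR and do not say what the controls carry in place of FOSL1. They mention 5-fluorouracil treatment for the series in general without saying whether these samples received it. Each control is 1 sample, so every difference between them has no replicate check, and all intervals below cover counting error only.

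Breast epithelium is built of an inner luminal layer, marked by the simple keratins KRT8, KRT18, KRT7 and KRT19, and an outer basal layer, marked by KRT5, KRT14 and KRT17. Triple-negative tumours lack the estrogen and progesterone receptors and extra ERBB2, and many of them express genes of both layers. MDA-MB-468 is known for extra copies of the epidermal growth factor receptor gene EGFR. A clonal line can still hold cells in different states, because cells pass through the division cycle and because stress, secretory and cytoskeletal programmes turn on and off.

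Depth was alike in both controls. The HA control gave 57027877 gene UMIs and the VPR control 44778587, with a median of 15401.5 and 15810 UMIs and of 4041 and 4132 genes per cell. Mitochondrially encoded genes held a median of 11.5% and 11.3% of a cell's UMIs, and ribosomal protein genes 18.0% and 17.1%. No cell barcode was shared between samples (0 shared). Free RNA in the suspension, which all 5 samples shared, was profiled from droplets with 10 to 100 UMIs. Its levels are given below as those of empty droplets. No cell type that lacks the genes below was in the pool, so the part of free RNA in a gene's share of cells was not tested.

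The label markers were all present at high levels, in CPM (counts of a gene scaled to one common total of gene UMIs). In the HA control EGFR stood at 1924 CPM (exact Poisson interval at 95%, 1912 to 1935), in the VPR control at 1829 CPM (1817 to 1842), and 99.9% and 99.8% of cells held at least 1 UMI of it. KRT18 was at 1404 and 1745 CPM, KRT7 at 1274 and 1335 CPM and KRT8 at 925 and 1090 CPM in the HA and VPR controls, and KRT8, the lowest of them, had a UMI in 99.8% and 100% of cells. The calprotectin subunit gene S100A9 was at 1533 and 1985 CPM and was found in 99.1% and 99.5% of cells. The neighbours in this order of keratins, KRT18, KRT7 and KRT8, kept it in both controls, although tag counts are not scaled by transcript length and do not rank proteins.

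Receptor genes were read next. ESR1, the estrogen receptor gene, stood at 1.60 CPM in the HA control and 1.83 CPM in the VPR control. PGR, the progesterone receptor gene, had 0 UMIs in both, which allows up to 0.0526 and 0.0670 CPM (3 counts per control). Of the EGFR relatives, ERBB2 was at 11.7 and 13.5 CPM, ERBB3 at 29.5 and 30.5 CPM, and ERBB4 had 0.0175 and 0 CPM.

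Markers of other cell types were close to absent. The 7 fibroblast markers summed to 5.79 CPM in the HA control and 4.29 CPM in the VPR control, of which COL1A1 gave 4.30 and 3.31 CPM, and the collagen-binding genes DCN and LUM were at 0 in both. The 10 leukocyte markers summed to 15.3 and 19.6 CPM, nearly all of it CD14 with 14.2 and 18.6 CPM, while the pan-leukocyte gene PTPRC was at 0.0526 and 0.0223 CPM and 4 of the 10 were at 0. Sums of 1.67 and 1.16 CPM for 5 endothelial markers and 0.0701 and 0.0670 CPM for 4 erythroid markers completed the lists. Among 13 mesenchymal genes 0 reached 20 CPM. SNAI2, COL6A1 and COL6A2 were at 0, and vimentin (VIM), an intermediate filament gene of mesenchymal cells, stood at 9.82 and 9.04 CPM, with 9.76% and 9.33% of cells holding a UMI.

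The RNA of these cells was led by the respiratory chain genes of the mitochondrial genome. MT-CO3, a subunit of cytochrome oxidase, was the most abundant gene of both controls, with 24078 CPM in the HA control (24038 to 24118) and 23481 CPM in the VPR control (23436 to 23526). Next came MT-CO2 with 23235 and 23423 CPM, the ATP synthase gene MT-ATP6 with 17458 and 16913 CPM, and MT-CO1 with 16446 and 15872 CPM. MT-ND4 (9979 and 9506 CPM), MT-CYB (8981 and 9010 CPM) and MT-ND3 (6637 and 6484 CPM) were also among the 20 most abundant genes. All 13 mitochondrially encoded genes together held 11.3% and 11.1% of the UMIs. In empty droplets MT-CO3 stood at 9099 CPM, well under its level in cells.

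SEC61G was the most abundant nuclear gene. It encodes the gamma subunit of the SEC61 channel, through which secreted proteins enter the endoplasmic reticulum, and stood at 13812 CPM in the HA control (13781 to 13842) and 13866 CPM in the VPR control (13831 to 13900). FTH1, the ferritin heavy chain that stores iron, followed with 8922 and 10272 CPM, and the nuclear non-coding RNA MALAT1 with 9615 and 9425 CPM. The translation elongation factor EEF1A1 had 6992 and 5982 CPM and the nuclear protein gene PTMA 5683 and 5581 CPM. Empty droplets, shared by all 5 samples, held more SEC61G (19901 CPM) and FTH1 (17528 CPM) than the control cells did, and less MALAT1 (4164 CPM). In the HA FOSL1 sample the cells held more FTH1 (19044 CPM) than the empty droplets. The gRNA2 and gRNA3 samples had 15697 and 15205 CPM of it. Of the 20 genes of highest mean, the remaining 8 were ribosomal protein genes, the highest of them RPS12 (6195 and 5859 CPM).

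Few genes made up much of the RNA. The top gene alone held 2.41% of the UMIs of the HA control and 2.35% of the VPR control, the 10 most abundant genes 13.95% and 13.8%, the top 50 genes 29.0% and 28.3%, and the top 100 genes 38.1% and 37.3%. The 79 cytosolic ribosomal protein genes together held 17.8% and 17.0%, and 84 nuclear genes for oxidative phosphorylation 3.01% and 3.03%. Of the 50 genes of highest mean, 8 were mitochondrially encoded, 25 ribosomal and 17 neither. The controls shared 9 of their 10, 48 of their 50 and 96 of their 100 most abundant genes. Across the 5721 genes that averaged 20 CPM or more over both controls, log10 CPM of the 2 controls had a Pearson r of 0.997, a description over genes, which are not independent.

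**Figure D1:**
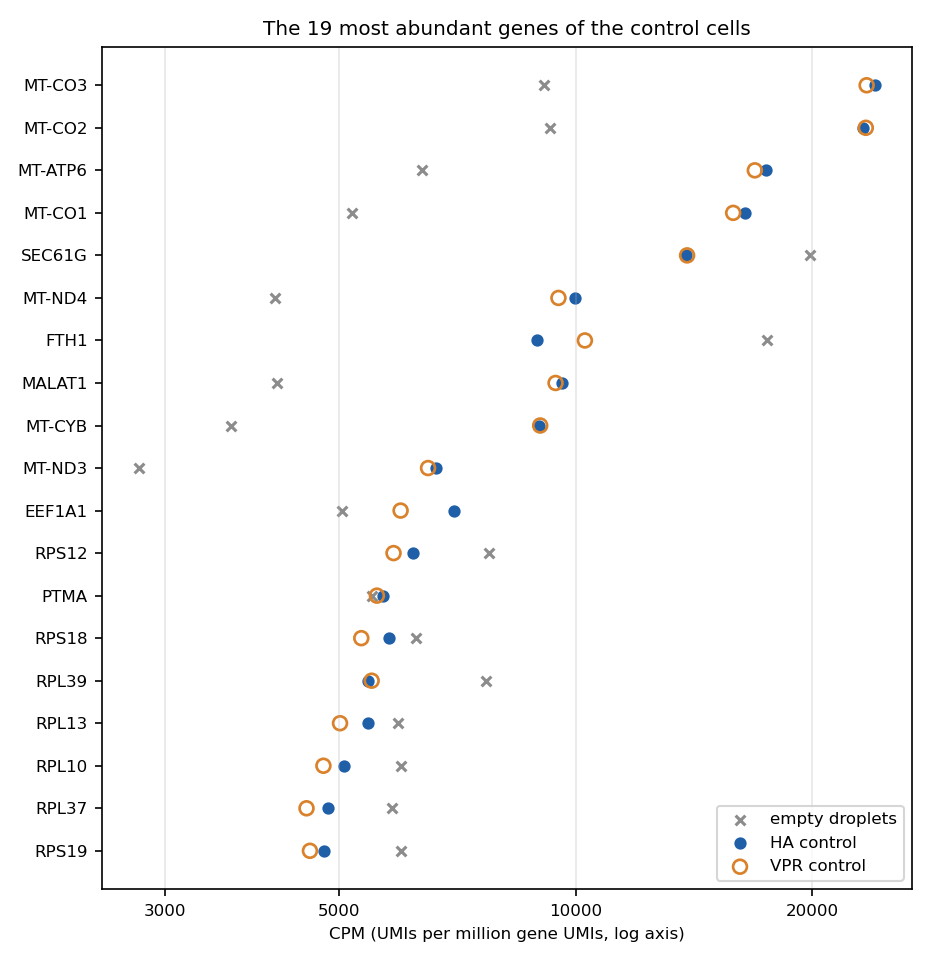
Levels of the 19 genes of highest mean over both controls (vertical axis), in CPM on a log axis, with filled points for the HA control, open circles for the VPR control and crosses for empty droplets. The controls lie closer together than the empty droplets do to them at most genes, MT-CO3 leads with 24078 and 23481 CPM, and SEC61G and FTH1 are the genes at which the cross lies farthest to the right of the cells.

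Other genes of the line were read from the lists and groups described below. Matrix Gla protein (MGP), a secreted inhibitor of mineral deposits, stood at 3756 CPM in the HA control and 3041 CPM in the VPR control. The metal-binding metallothionein MT2A was at 2956 and 3836 CPM, and the calcium-binding S100A6 at 2547 and 3014 CPM. KRT19 reached 2001 and 2169 CPM. The zinc-alpha-2-glycoprotein gene AZGP1 had 768 and 755 CPM, the retinoid-induced RARRES1 602 and 704 CPM, and the protease inhibitor SLPI 595 and 539 CPM. Adhesion genes were present too, with EPCAM at 343 and 344 CPM and the claudin CLDN7 at 269.7 and 268 CPM, whereas the desmosomal PKP1 was at 0 in both. The luminal regulators GATA3 (41.2 and 41.0 CPM), FOXA1 (22.2 and 24.2 CPM) and ELF3 (303 and 317 CPM) were found beside SOX9 (132 and 116 CPM) and FOXC1 (88.1 and 81.8 CPM), which is known from basal-like tumours. TFF1, an estrogen-induced secreted peptide, and the neural crest regulator SOX10 had 0 UMIs in both.

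Some genes were found in virtually every cell. A UMI in at least 99% of the cells of both controls was seen for 291 genes, 0.871% of the 33399 genes counted. They comprised 77 of the 79 ribosomal protein genes, 10 of the 13 mitochondrially encoded genes, 28 nuclear genes of oxidative phosphorylation and 176 others. For 84 genes every cell of both controls held a UMI, and 57 of those were ribosomal. At the other end, 7410 genes of the HA control and 6863 of the VPR control were found in under 1% of cells, and 3114 and 3239 genes in over 50%.

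Because detection depends on depth, cells were also drawn down to 5000 UMIs each. The HA control lost 13 shallower cells by this and the VPR control 8. At that depth 129 genes stayed at or above 99% of cells in both controls, and 39 were in every cell. Outside ribosomal and mitochondrial genes, the 8 found in every thinned cell were SEC61G, FTH1, EEF1A1, the actin-sequestering TMSB10, the mitochondrial protein gene CHCHD2, the glycolytic enzyme GAPDH, the ubiquitin-like splicing factor UBL5 and the ribosome-bound scaffold RACK1. The cyclophilin PPIA, the tubulin TUBB, the actin ACTB, the chaperone HSP90AB1, PTMA, S100A6 and the histone variant gene H3F3A were each found in at least 99.9% of thinned cells of either control. Of the label markers, EGFR was in 99.5% of thinned cells of either control and S100A9 in 93.5% and 95.4%.

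The spread between cells was measured as the excess coefficient of variation (excess CV), the relative spread of a gene between cells after a cell's depth and the error of counting have been taken out. It is 0 where cells differ by counting error alone, 1 where the spread equals the mean, and can fall under 0 by chance. Over the 5721 genes tested its median was 0.283 in the HA control and 0.278 in the VPR control. An excess CV of at least 0.5 in both controls was found for 605 genes (10.6%), and of at least 1 in both for 127. Singly, 772 genes reached 0.5 in the HA control and 703 in the VPR control, so that 78.4% and 86.1% of each list were shared. The 25 most variable genes of either control had 21 in common and the 100 most variable 79, and across genes the measure had a Pearson r of 0.845 between controls. Just inside the limit of 0.5 lay LINC01315 (0.503 and 0.502) and LIG1 (0.624 and 0.501), and just outside it PCLAF (0.520 and 0.499), IER3 (0.521 and 0.499) and KRT80 (0.683 and 0.498).

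**Figure D2:**
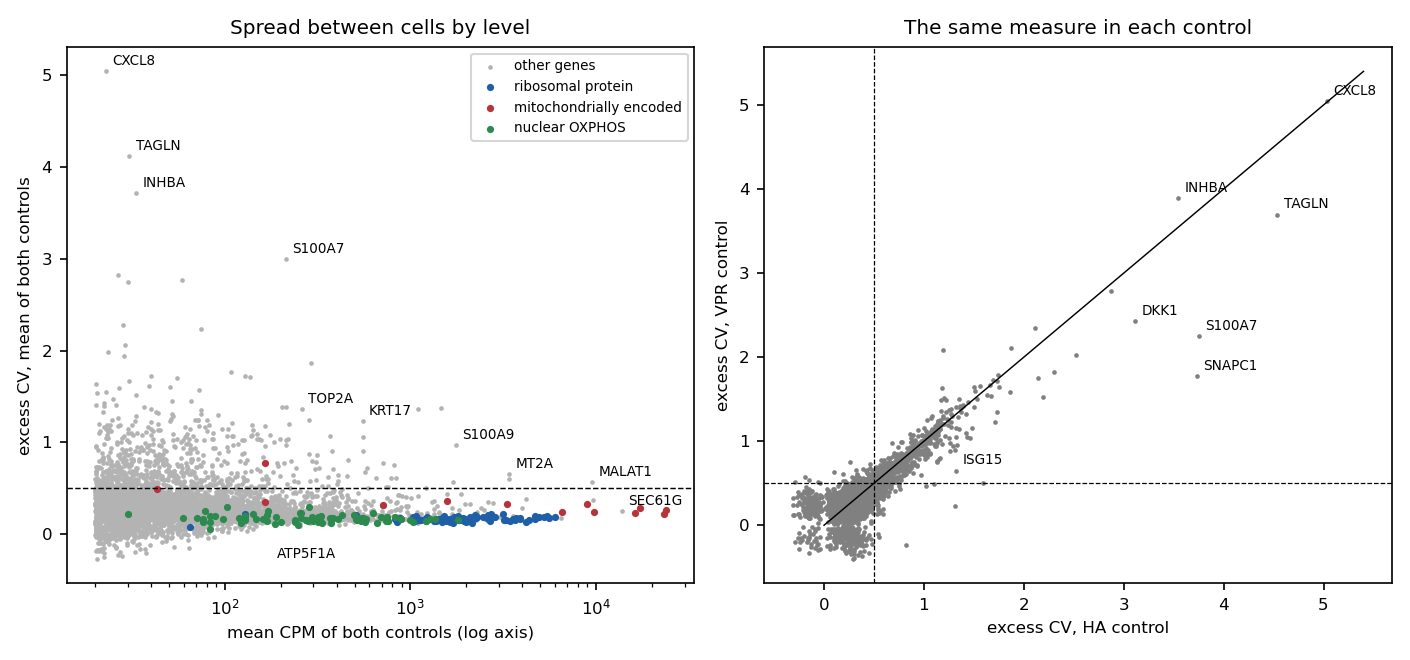
Left, excess CV between cells (mean of both controls, vertical axis) against the mean level in CPM (log axis) for the 5721 genes tested, with ribosomal, mitochondrially encoded and nuclear oxidative phosphorylation genes in colour. Right, excess CV of the HA control (horizontal axis) against the VPR control, with the line of equal values and dashed lines at 0.5; CXCL8 lies at 5.04 in both, and S100A7 at 3.75 and 2.25.

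The most variable gene was CXCL8, the neutrophil-attracting chemokine interleukin-8. It averaged 27.4 CPM in the HA control (26.1 to 28.8) and 18.1 CPM in the VPR control (16.9 to 19.4), and was found in 11.7% and 8.79% of cells. The 1% of cells richest in it held 45.5% and 47.3% of its UMIs, and the highest cell had 61 and 41 UMIs. The excess CV was 5.04 in both controls. Most cells had no CXCL8 UMI, and the empty droplets shared by all 5 samples held 40.2 CPM of it.

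Of the 25 most variable genes, ranked by the smaller excess CV of both controls, those with secreted products are given first. INHBA, the subunit of activin A, was at 37.4 and 29.1 CPM in 19.7% and 15.3% of cells, beside 55.4 CPM in empty droplets. Its excess CV was 3.54 and 3.89. The secreted protease gene ADAMTS1 (2.87 and 2.78), the Wnt antagonist DKK1 (3.12 and 2.43) and matrilysin, MMP7 (2.30 and 1.83), varied likewise. CST6, an inhibitor of cysteine proteases (2.52 and 2.03), TFPI2, an inhibitor of serine proteases (1.74 and 1.79), and the connective tissue growth factor CTGF (1.86 and 1.58) did as well. The defensin DEFB1, an antimicrobial peptide of epithelia, had 1.66 in both, and the pregnancy-specific glycoprotein PSG9, a member of a family of near-identical genes, 2.14 and 1.75.

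The products of the next genes act inside the cell or at its surface. The actin-binding protein transgelin (TAGLN) averaged 27.4 CPM in the HA control and 33.8 CPM in the VPR control, and the richest 1% of cells held 42.4% and 34.1% of its UMIs (excess CV 4.54 and 3.70). The stress keratin KRT16 had 2.11 and 2.35 and the basal keratin KRT14 1.75 and 1.65, although keratin genes of this family are similar enough to share reads. The ankyrin-repeat gene ANKRD1, known as a target of the mechanosensitive factor YAP, had 1.87 and 2.11, and the DNA damage response gene GADD45A 1.69 and 1.73. SNAPC1, a subunit of the complex that starts small nuclear RNA genes, had 3.73 in the HA control and 1.77 in the VPR control. Its highest cell held 90 of its 1740 UMIs in the HA control and 43 of 1335 in the VPR control. How far single cells set these values was not tested. Among cells between the quartiles of UMIs the smaller value of both controls was 0.834 for SNAPC1 and 0.896 for GADD45A. The adhesion molecule ICAM1 (1.67 and 1.54), the interferon-induced GTPase GBP1 (1.53 and 1.497), the surface protein LY6D (1.63 and 1.54) and the aldose reductase AKR1B1 (1.498 and 1.65) were also among the 25.

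Of the S100 genes, S100A7 and S100A8 were among the 25. S100A7, psoriasin of inflamed skin, stood at 110.1 CPM in the HA control and 314.6 CPM in the VPR control, was found in 26.8% and 49.3% of cells and had an excess CV of 3.75 and 2.25. S100A8, the partner of S100A9, was at 241 and 342 CPM in 59.9% and 69.7% of cells, with 2.20 and 1.53. Empty droplets held 167 CPM of S100A7 and 185 CPM of S100A8. S100A9 itself, found in nearly every cell, varied less (1.04 and 0.893). The replication-dependent histone genes among the 25 were HIST1H1B (1.73 and 1.72), HIST1H1D (1.56 and 1.66) and HIST2H2AC (1.52 and 1.59). All 25 genes also had an excess CV of at least 0.5 in each of the 3 FOSL1 samples, which the ranking did not use. Of the 605 variable genes, 92.4% reached 0.5 in the HA FOSL1 sample, 88.8% with gRNA2 and 88.6% with gRNA3, beside 15.8%, 12.04% and 11.4% of all genes tested.

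At the other end stood genes whose level hardly differed between cells. Of 725 genes that averaged 200 CPM or more, the median of the larger excess CV of both controls was 0.220, and 42 genes were under 0.15 in both, a limit chosen after the values were seen. Lowest were ATP5F1A (0.106 and 0.105), the alpha subunit of ATP synthase, the splicing protein gene ARL6IP4 (0.0762 and 0.112) and the phosphatase PPP1CA (0.113 and 0.0832). The mitochondrial ribosome gene MRPL21 (0.107 and 0.118), ATP5F1B (0.120 and 0.118), the ubiquitin-like modifier SUMO2 (0.125 and 0.124), PARK7 (0.126 and 0.111), the ribosomal RPLP2 (0.126 and 0.122), ERH (0.115 and 0.128) and the phosphate carrier SLC25A3 (0.131 and 0.104) followed.

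Whole classes differed in their spread. None of the 79 ribosomal protein genes (0 of 79) and none of the 75 nuclear oxidative phosphorylation genes at 20 CPM or more (0 of 75) was variable, beside the 10.6% of all genes tested, and their medians were 0.170 and 0.167, and 0.172 and 0.166, in the HA and VPR controls. Mitochondrially encoded genes had medians of 0.332 and 0.315, with MT-ND6, the gene on the opposite strand of that genome, as the 1 variable member (0.805 and 0.740). Of 13 glycolytic genes at 20 CPM or more 1 was variable. That was LDHB, a subunit of lactate dehydrogenase, found in 48.7% of cells of the HA control and 34% of the VPR control (1.20 and 1.51), whereas LDHA had 0.283 and 0.268. Simple keratins had 0 of 4 variable members, with KRT19 at 0.343 and 0.314, and the junction genes 1 of 14, the claudin CLDN1 (0.940 and 1.06).

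Other lists ranged from all members variable to 0, to be read beside the 10.6% of all genes tested. All 9 replication-dependent histone genes at 20 CPM or more were variable, with medians of 1.42 and 1.36, and 50 of 51 G2 and mitosis genes, with medians of 1.04 and 1.04. All 5 basal and stress keratins at that level were variable, from KRT5 (0.624 and 0.516) to KRT16, and their medians were 1.19 and 1.28. The same held for 9 of 9 mammary epithelial regulators, a list that joins luminal genes such as GATA3 (0.529 and 0.572) and ELF3 (0.609 and 0.573) with FOXC1 (0.681 and 0.678), and whose medians were lower at 0.619 and 0.573. Of 13 immediate early genes 10 were variable, such as FOS (0.903 and 0.875) and DUSP1 (1.12 and 1.08), of 8 secreted squamous genes 7, and of 8 stress response genes of the endoplasmic reticulum and amino acid supply 6. S phase genes had 15 of 26, S100 genes 5 of 11, aldo-keto reductases and detoxifying genes 4 of 12, sterol synthesis genes 3 of 13, and MHC class I and heat shock genes 2 of 10 and 2 of 12. All 4 metallothioneins at that level were variable, led by MT1E (1.36 and 1.42). Chemokines and cytokines had 3 of 4, hypoxia genes 3 of 5, mammary progenitor genes 2 of 6 and interferon-stimulated genes 1 of 3, while ERBB receptors had 0 of 2. Medians were under 0.5 in both controls for detoxifying (0.373 and 0.387), sterol (0.402 and 0.418), MHC class I (0.380 and 0.335) and heat shock genes (0.403 and 0.372). The same held for interferon-stimulated genes (0.410 and 0.355) and ERBB receptors (0.392 and 0.397). S100 genes (0.407 and 0.502) and progenitor genes (0.536 and 0.480) lay on both sides of 0.5.

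**Figure D3:**
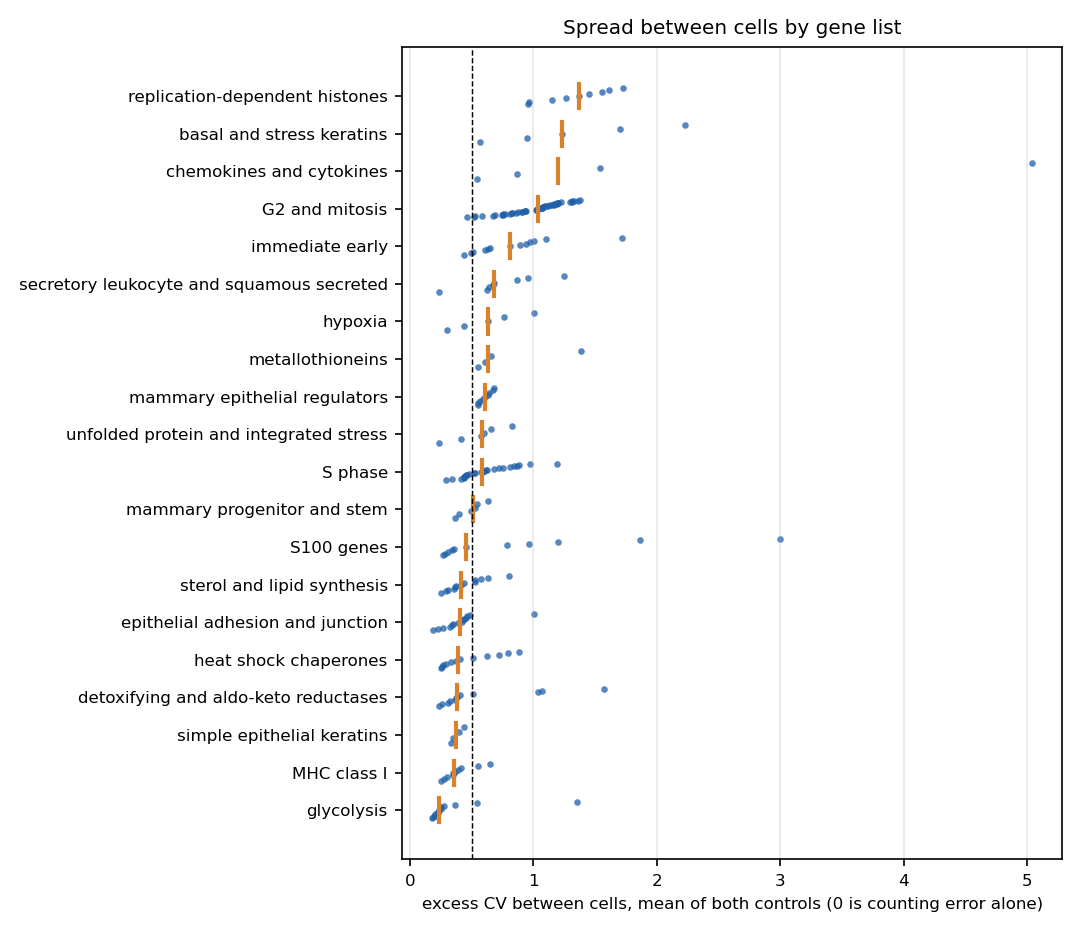
Excess CV between cells (mean of both controls, horizontal axis) of each gene at 20 CPM or more in the lists with at least 4 such genes, with an orange bar at the list's median and a dashed line at 0.5. Histones and basal keratins have the highest medians, and glycolytic genes the lowest of the lists shown; ribosomal, mitochondrially encoded and nuclear oxidative phosphorylation genes are not drawn.

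Variable genes fell into groups that varied together from cell to cell. The 100 most variable genes were ranked by the smaller excess CV of both controls, so both took part in choosing them. Groups of these genes were then set in the HA control alone, by correlating their depth-corrected residuals over its 3380 cells. The same pairs were read afterwards in the 2595 cells of the VPR control. The points share 1 library and each cell's total. The median r of all pairs was 0.00840 in the HA control and 0.0135 in the VPR control. Of the 100 genes 69 fell into 4 groups with a mean r of at least 0.2, and 31 into none. The mitotic group held 36 genes, led by the DNA topoisomerase TOP2A, the kinetochore gene CENPF, the spindle gene TPX2, NDC80 and the ubiquitin-conjugating UBE2C, with a mean r of 0.467 in the HA control and 0.473 in the VPR control. The second group held 21 genes, led by KRT17, the caveola gene CAV1, the matrix protein thrombospondin (THBS1), CST6 and TAGLN (0.289 and 0.285). Another group held 7 histone genes, led by HIST1H4C and HIST1H1A (0.541 and 0.519). The last held S100A8, the selenium carrier SELENOP, S100A7, the secreted chaperone CLU and the skin protease CASP14 (0.289 and 0.277).

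**Figure D4:**
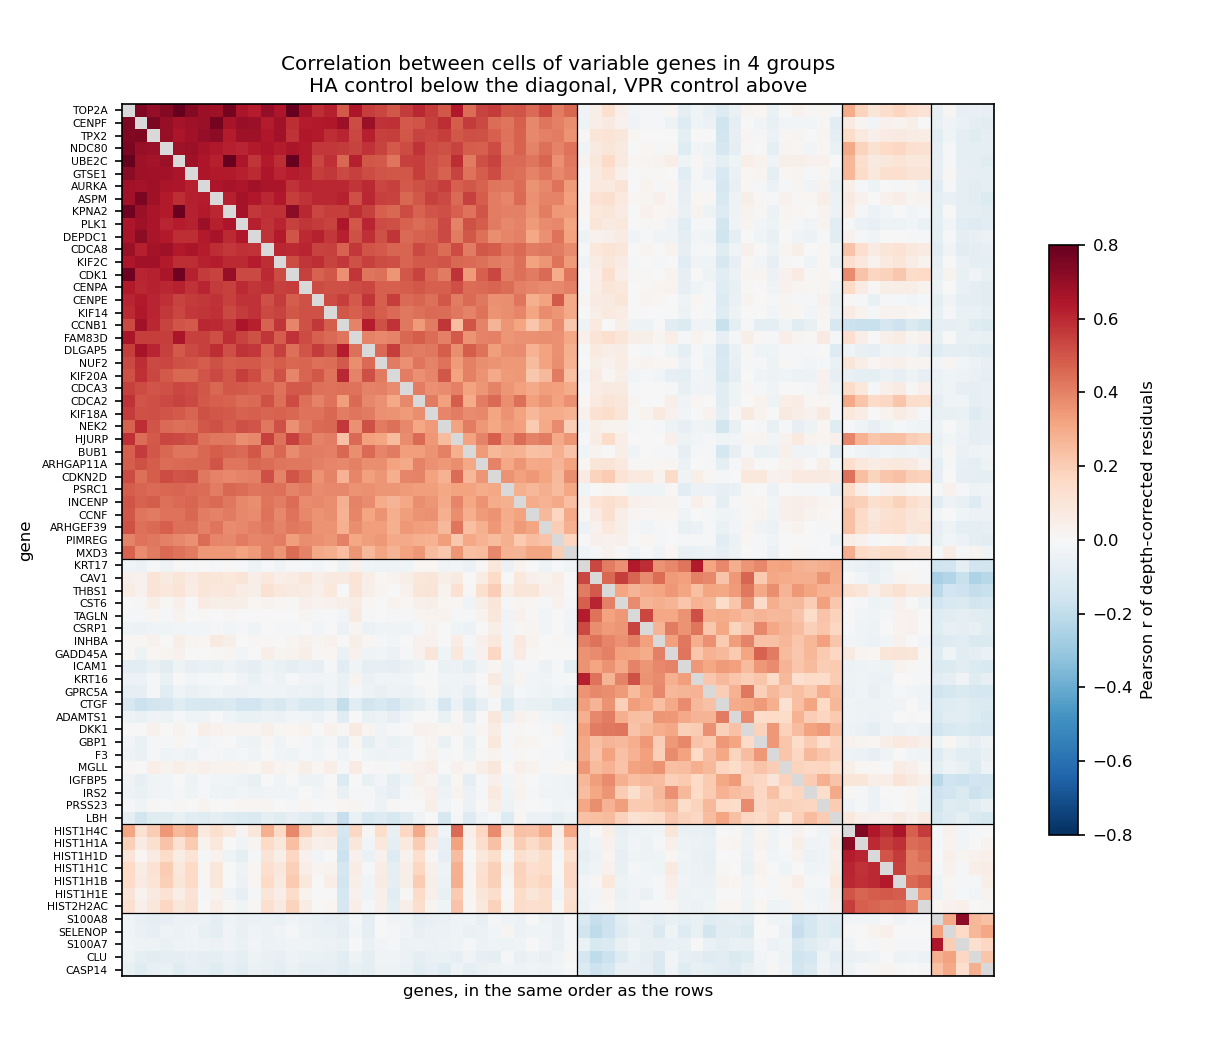
Pearson r between cells for each pair of the 69 genes in the 4 groups, in the order of the rows, with the HA control below the diagonal and the VPR control above it and black lines between groups. The 4 blocks along the diagonal appear on both sides of it, with mean r of 0.467, 0.289, 0.541 and 0.289 in the HA control.

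When all 605 variable genes were grouped in the same way, a choice made after the first result was seen, 250 fell into 10 groups and 355 into none. The mitotic group grew to 110 genes (mean r 0.361 in the HA control and 0.368 in the VPR control) and the KRT17 group to 54 (0.270 and 0.258), now with the tropomyosins TPM1 and TPM2, the actinin ACTN1, the myosin MYH9 and the focal adhesion genes ZYX and VCL. Histones joined the replication genes PCNA, CLSPN and RRM2 in an S phase group of 46 (0.246 and 0.257). Smaller groups were CLU with RARRES1, the death ligand TNFSF10 and SELENOP (9 genes, 0.260 and 0.250), AZGP1 with SLPI, MGP and the mucin MUC1 (8 genes, 0.277 and 0.262), and AKR1C2 with AKR1C1, the polyamine enzyme SAT1 and FOXC1 (7 genes, 0.278 and 0.254). AKR1C1 and AKR1C2 are close copies, so their counts can be split between them. Further groups of 4 genes were the sterol genes HMGCS1, MSMO1, SQLE and INSIG1 (0.226 and 0.230), the metallothioneins MT2A, MT1X, MT1E and MT1F (0.383 and 0.406), and S100A9, S100A8, S100A7 and the cytochrome CYP1B1 (0.457 and 0.4997). In the 3 FOSL1 samples, HA FOSL1, gRNA2 and gRNA3, the mitotic group had 0.361, 0.381 and 0.373, while the KRT17 group had 0.222, 0.190 and 0.202.

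Promoters of the grouped genes were read from RefSeq (GRCh38.p14), taking the 250 bases before the first listed start of each gene, and short motifs were searched in them on both strands. A match is a description of letters and not a binding site. Among all 27305 promoters, 13.6% held the cell cycle homology region TTTGAA and 33.0% the CCAAT box. Of 93 matched genes of the 110 in the mitotic group, 41 (44.1%) held the first and 66 (71.0%) the second. The following are 140 bases up to the start of the 4 genes of that group with the highest mean r that hold the cell cycle homology region there, with both motifs in capitals, to show how they lie to each other. In MKI67, the gene of the proliferation marker Ki-67, a cell cycle homology region and a CCAAT box overlap. They lie at chr9:89311055-89311194 (plus strand, CKS2, a partner of cyclin-dependent kinases), chr1:197146670-197146809 (minus, the spindle pole gene ASPM), chr22:46296730-46296869 (plus, GTSE1, a microtubule-binding gene) and chr10:128126424-128126563 (minus, MKI67).
CKS2: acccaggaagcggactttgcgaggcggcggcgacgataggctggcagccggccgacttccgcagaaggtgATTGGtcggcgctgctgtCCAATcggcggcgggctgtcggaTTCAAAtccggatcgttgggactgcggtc
ASPM: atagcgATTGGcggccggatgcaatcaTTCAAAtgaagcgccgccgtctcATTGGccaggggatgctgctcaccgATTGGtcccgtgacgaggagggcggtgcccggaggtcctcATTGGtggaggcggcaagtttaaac
GTSE1: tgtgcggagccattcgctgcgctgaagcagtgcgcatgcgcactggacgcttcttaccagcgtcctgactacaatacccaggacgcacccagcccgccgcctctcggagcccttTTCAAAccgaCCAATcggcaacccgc
MKI67: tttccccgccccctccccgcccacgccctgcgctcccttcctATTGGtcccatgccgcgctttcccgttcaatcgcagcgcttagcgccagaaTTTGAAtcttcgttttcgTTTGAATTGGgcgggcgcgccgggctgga

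Linker histone genes of the S phase group shared another motif. The H1 box AAACACA, known from the promoters of linker histone genes, was found in 5 of 5 of them (100%) and in 4.95% of all promoters, and the CCAAT box in 5 of 5 as well. Levels of the 5 genes ran from 28.3 and 24.9 CPM for HIST1H1E to 66.3 and 65.6 CPM for HIST1H1A in the HA and VPR controls. Messages of these genes mostly lack a poly(A) tail, so tag counts primed on such tails see part of them. The stretches lie on chromosome 6, at chr6:26017788-26018037 (minus strand, HIST1H1A), chr6:27867589-27867728 (minus, HIST1H1B), chr6:26056471-26056610 (minus, HIST1H1C), chr6:26234988-26235127 (minus, HIST1H1D) and chr6:26156189-26156328 (plus, HIST1H1E). Each ends at the base before the start, 250 bases are shown for HIST1H1A and 140 for the others, and capitals mark the H1 box and the CCAAT box on either strand.
HIST1H1A: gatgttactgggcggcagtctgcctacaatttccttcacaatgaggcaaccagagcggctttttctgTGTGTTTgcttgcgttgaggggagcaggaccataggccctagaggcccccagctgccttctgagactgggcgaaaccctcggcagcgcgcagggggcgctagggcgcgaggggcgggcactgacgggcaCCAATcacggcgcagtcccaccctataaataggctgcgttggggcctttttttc
HIST1H1B: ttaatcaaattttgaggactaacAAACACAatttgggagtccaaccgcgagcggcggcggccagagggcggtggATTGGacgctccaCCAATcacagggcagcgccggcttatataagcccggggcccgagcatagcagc
HIST1H1C: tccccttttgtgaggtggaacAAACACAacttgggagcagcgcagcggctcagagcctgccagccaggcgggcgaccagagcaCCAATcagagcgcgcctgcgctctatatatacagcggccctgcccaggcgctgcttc
HIST1H1D: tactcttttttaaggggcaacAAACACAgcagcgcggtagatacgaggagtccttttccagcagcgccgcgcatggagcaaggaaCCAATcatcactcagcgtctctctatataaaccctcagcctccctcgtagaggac
HIST1H1E: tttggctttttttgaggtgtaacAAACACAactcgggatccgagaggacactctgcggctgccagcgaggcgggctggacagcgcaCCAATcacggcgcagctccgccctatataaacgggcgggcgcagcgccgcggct

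In the S phase group as a whole, 40 of 46 genes were matched, and 7 of them (17.5%) held the E2F motif TTTNGCGC, beside 1.54% of all promoters. The CCAAT box was in 26 (65.0%) of the 40 and the cell cycle homology region in 5 (12.5%), close to its share among all promoters. The 2 members with the highest mean r that hold the E2F motif within 140 bases were HELLS, a chromatin remodeller (chr10:94545648-94545787, plus strand), and ORC6, a subunit of the origin recognition complex (chr16:46689519-46689658, plus). Their sequences follow with the E2F motif in capitals, and in ORC6 also the CCAAT box, which HELLS lacks in this stretch.
HELLS: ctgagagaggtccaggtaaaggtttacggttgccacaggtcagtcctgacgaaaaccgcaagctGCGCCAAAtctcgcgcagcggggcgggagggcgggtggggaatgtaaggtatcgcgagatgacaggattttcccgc
ORC6: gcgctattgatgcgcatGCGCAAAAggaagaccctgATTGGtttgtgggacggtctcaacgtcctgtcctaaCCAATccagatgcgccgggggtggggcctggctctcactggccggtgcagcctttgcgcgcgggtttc

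For the KRT17 group 35 of 54 genes were matched. GGAATG, the motif of TEAD factors, was found in 8 of them (22.9%), beside 11.9% of all promoters, and the AP-1 motif TGANTCA in 1 (2.86%), beside 6.60%. The CArG box, the site of serum response factor, was in 2 (5.71%), beside 1.14%. THBS1 (chr15:39580939-39581078, plus strand), MYH9 (chr22:36387968-36388107, minus) and CTGF (listed in RefSeq as CCN2, chr6:131951373-131951512, minus) were the 3 with the highest mean r that hold the TEAD motif within 140 bases, shown with it in capitals. CTGF held it at 2 places.
THBS1: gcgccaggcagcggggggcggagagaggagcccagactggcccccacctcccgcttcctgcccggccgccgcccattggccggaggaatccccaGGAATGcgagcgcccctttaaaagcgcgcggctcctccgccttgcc
MYH9: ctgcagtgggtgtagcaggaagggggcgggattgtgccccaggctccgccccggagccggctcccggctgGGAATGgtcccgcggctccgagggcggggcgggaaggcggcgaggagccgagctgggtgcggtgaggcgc
CTGF: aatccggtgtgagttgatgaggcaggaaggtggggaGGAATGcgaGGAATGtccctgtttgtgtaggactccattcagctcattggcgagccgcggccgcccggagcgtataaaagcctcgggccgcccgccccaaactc

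Of the 4 metallothioneins 2 were matched, MT2A (chr16:56608444-56608583, plus strand) and MT1X (chr16:56682330-56682469, plus). Metallothioneins bind zinc and copper, and their promoters are known for metal response elements. The cores TGCACNC and TGCGCNC, counted together, matched 4 times in the 140 bases of MT2A and 3 times in those of MT1X (capitals), and at least once in 24.7% of all promoters, 36.6% of those of the mitotic group, 45.0% of those of the S phase group and 3 of 5 linker histone promoters. MT2A was at 2956 and 3836 CPM and MT1X at 753 and 922 CPM in the HA and VPR controls, with an excess CV of 0.676 and 0.635 for MT2A, and of 0.625 and 0.595 for MT1X.
MT2A: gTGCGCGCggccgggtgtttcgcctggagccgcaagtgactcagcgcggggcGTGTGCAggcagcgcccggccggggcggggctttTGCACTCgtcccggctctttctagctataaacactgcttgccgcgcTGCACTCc
MT1X: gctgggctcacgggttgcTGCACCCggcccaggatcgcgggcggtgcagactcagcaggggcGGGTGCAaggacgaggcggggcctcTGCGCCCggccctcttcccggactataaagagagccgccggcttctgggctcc

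Of the 4 sterol synthesis genes 3 were matched. The sterol response element TCACNCCAC was in 0 of them, beside 0.875% of all promoters, and the CCAAT box in 3.

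Sums of the groups per cell, in UMIs per 10000, were set against each other. Abundant members weigh most in such sums. In the AZGP1 group (median 55.4 and 47.7 in the HA and VPR controls) MGP alone averaged 3756 and 3041 CPM. S100A9 averaged 1533 and 1985 CPM in its group (median 11.6 and 17.4), and HIST1H4C 1469 and 1449 CPM in the S phase group (median 23.0 and 23.7). RARRES1 and MT2A weigh likewise in theirs. Whether the other members alone give the same r was not tested. The KRT17 group ran from 40.4 (5th percentile) over a median of 82.8 to 206 (95th percentile) in the HA control, and from 42.1 over 80.9 to 198 in the VPR control. It was opposed to the CLU group, with an r of -0.42 over 3380 cells and -0.48 over 2595 cells. The AKR1C group (-0.39 and -0.39), the S100A9 group (-0.29 and -0.36) and the AZGP1 group (-0.30 and -0.28) were opposed to it as well. With the mitotic group (0.00 and 0.02), the S phase group (0.03 and 0.05) and the metallothioneins (0.02 and 0.06) it had an r near 0. The CLU group in turn went with the AZGP1 group (0.40 and 0.43) and the S100A9 group (0.38 and 0.44). At 5000 UMIs a cell the r of the KRT17 group with the CLU group was -0.38 and -0.42. A cell's sums share 1 total, so a rise of one group lowers all others slightly.

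The size of that opposition is seen at the ends of the range. In the 25% of cells lowest in the KRT17 group (845 and 649 cells of the HA and VPR controls) the median sum of the CLU group was 14.6 and 17.9 UMIs per 10000, against 5.75 and 6.08 in the 25% highest. For the S100A9 group the medians were 20.6 and 35.7 in the lowest and 6.68 and 7.30 in the highest cells, for the AKR1C group 20.8 and 18.4 against 7.99 and 6.86, and for the AZGP1 group 71.7 and 63.5 against 37.6 and 34.2. Metallothioneins stayed level, with 33.3 and 44.5 against 32.7 and 45.4. The S phase and mitotic groups had higher medians in the highest cells, although their r with the KRT17 group was small. For the S phase group they were 19.8 and 19.4 in the lowest and 28.6 and 30.1 in the highest cells. For the mitotic group they were 54.4 and 56.4 against 63.7 and 76.7. The part of depth in these S phase and mitotic medians was not tested. The cells high in the KRT17 group were also deeper, with a median of 17328 and 18055 UMIs against 13430 and 13927, and had less mitochondrial RNA, 10.4% and 10.1% against 12.5% and 12.5%. The part of depth and mitochondrial RNA in the opposition was not tested beyond the thinned values above.

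Cell cycle groups went with depth. The mitotic group had an r with the log of a cell's UMIs of 0.31 in both controls and the S phase group of 0.30 and 0.33. Sums of the mitotic group ran from 16.9 over 62.5 to 248 UMIs per 10000 in the HA control and from 17.8 over 63.4 to 253 in the VPR control. Mitotic and S phase sums had an r of 0.22 and 0.20 with each other.

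SEC61G, the leading nuclear gene, lies beside EGFR on chromosome 7 (SEC61G at chr7:54752253-54759211, its start coordinate 267 kb before that of EGFR at chr7:55019017-55211628 in RefSeq, GRCh38.p14). From 500 kb before to 1500 kb after that start, 14 genes were measured, a view chosen after the levels were seen. An average of 20 CPM or more was reached by 12 of them, EGFR and SEC61G included, with a median of 339 CPM in the HA control and 347 CPM in the VPR control, beside 51.4 and 51.8 CPM for all genes tested. At least 200 CPM was reached by 7 of these 12, beside 12.7% of all genes tested. The stretch was laid around EGFR and SEC61G, already seen to be high, and they raise both the median and this share. LANCL2, a lanthionine synthetase-like gene 346 kb after the start, was at 425 and 460.2 CPM and VOPP1 (416 kb) at 587 and 670 CPM. The chaperonin subunit CCT6A (1033 kb) was at 1672 and 1685 CPM and CHCHD2 (1083 kb) at 3462 and 3664 CPM. In contrast, VSTM2A, on the far side of SEC61G, had 0 UMIs in both and PHKG1 17.9 and 17.7 CPM. Copy number was not measured in these data.

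**Figure D5:**
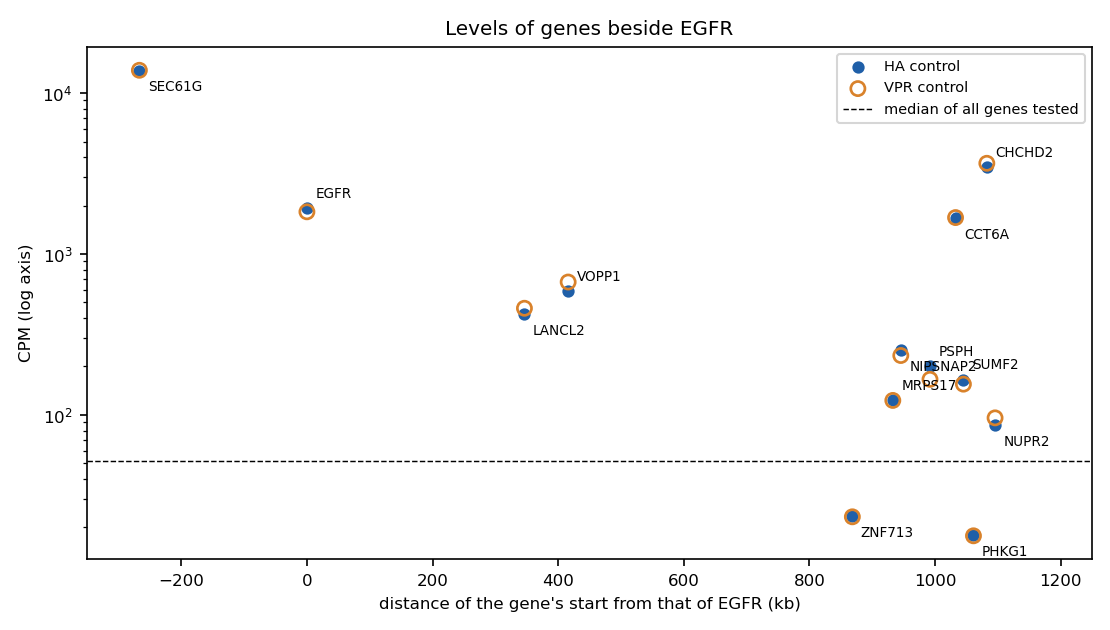
Level in CPM (vertical log axis) of genes with UMIs near EGFR against the distance of their start coordinate from that of EGFR in kb, with filled points for the HA control, open circles for the VPR control and a dashed line at the median of all genes tested. SEC61G, EGFR, CCT6A and CHCHD2 have the highest levels, and ZNF713 and PHKG1 below the line.

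Across cells, the genes that went most closely with SEC61G included neighbours of it. Of the 724 other genes that averaged 200 CPM or more, CHCHD2 ranked 1, with an r of depth-corrected residuals of 0.37 in the HA control and 0.39 in the VPR control, and VOPP1 ranked 2 (0.29 and 0.33). LANCL2 ranked 12 (0.17 and 0.21), CCT6A 16 (0.17 and 0.22), EGFR itself 77 (0.11 and 0.19) and NIPSNAP2 236 (0.07 and 0.06). UBL5 on chromosome 19 ranked 3 (0.24 and 0.25), RPL5 on chromosome 1 ranked 4 (0.20 and 0.19) and S100A11, also on chromosome 1, ranked 5 (0.23 and 0.19). In the FOSL1 samples, HA FOSL1, gRNA2 and gRNA3, the r of SEC61G with CHCHD2 was 0.40, 0.31 and 0.39 and with VOPP1 0.47, 0.31 and 0.39. These are descriptions over cells that share 1 library and their totals.

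The 2 controls differed in few genes by size. At least 2-fold apart were 2 of the 5721 genes tested (0.0350%), S100A7 and SOSTDC1, whose secreted product blocks BMP and Wnt ligands. S100A7, whose levels are given above, was higher in the VPR control by 1.51 (log2 of CPM + 1, exact binomial interval 1.46 to 1.55). SOSTDC1 stood at 43.1 CPM in the HA control (41.4 to 44.9) and 20.3 CPM in the VPR control (19.02 to 21.7) and was found in 39.7% and 23.8% of cells (log2 -1.05, -1.16 to -0.94). With a pseudocount of 5 CPM SOSTDC1 was at -0.93 and in the stricter cells, with at least 2000 genes and at most 10% mitochondrial UMIs, at -0.96, both short of 2-fold. In those stricter cells the carbonic anhydrase gene CA2 was 2-fold apart (-1.25), as it was with totals without mitochondrial and ribosomal genes (-1.32), which gave 3 genes. S100A7 and SOSTDC1 are variable genes within each control, with an excess CV of 1.08 and 1.297 for SOSTDC1. S100A8 and S100A9 were also higher in the VPR control, by 0.50 and 0.37. FOSL1 itself was at 8.96 and 8.91 CPM, found in 10.7% and 11.8% of cells, with an excess CV of 2.25 and 1.75, and the 5 samples' shared empty droplets held 63.4 CPM of it.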

How the data were processed

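Single-cell RNA of 5 hashed samples of MDA-MB-468 was sequenced as 1 library with 3' tag chemistry. The authors deposited a matrix of raw UMI counts over 33538 genes and all barcodes, made with Cell Ranger 4 per the file headers and on hg38 per the submitters' processing notes. No gene annotation version is stated in the labels or headers. The authors' deposited table gives each called cell a hashtag and the assignment probability as a fraction. It marked 5181 multiplets, 402 unassigned cells and 274 blanks, which were left out. The VPR hashtags name their samples, and the hashtags with the prefix GOF were taken as the HA samples by elimination. The labels speak once of 6 pooled samples and elsewhere of 5.

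UMIs were summed per control over kept cells and scaled to CPM, with exact Poisson intervals; shares have exact binomial (Clopper-Pearson) intervals, at 95%. The excess CV is the square root of the sum of (x - mu) squared minus mu, divided by the sum of mu squared, where x is a cell's count and mu its total times the gene's share. Genes that averaged 20 CPM or more were tested, genes that share a symbol and Y-linked genes left out. Groups of genes came from average linkage on Pearson residuals (mean r of at least 0.2, at least 4 genes). Named genes are the 20 most abundant, 25 most variable, 10 steadiest and up to 15 most widely found, members of 29 lists, the 5 leading genes of each group, genes 2-fold apart and FOSL1; other members of groups, and genes near EGFR, were named after their values were seen; ribosomal and oxidative phosphorylation genes were taken by symbol. Members and lists were chosen with earlier results of these data known. A few genes and the results that need them are not reported here. The measure was also run on simulated data, and no result of that run is given. Alternatives changed the cell filter, depth, totals, free RNA, limits and pseudocount. Python 3.11.15, NumPy 2.4.6 and SciPy 1.17.1 were used.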

Additional observations from a re-analysis of the deposited data

How the results depend on the processing

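No paired analysis was possible because each group is 1 sample and the results come from no test. The 25 most variable genes had an excess CV of at least 0.5 in both controls under the 5 alternatives that change the measure (125 values, 0.8337 to 5.182), with 24 of them still at 20 CPM in the stricter cells. A limit of 0.7 kept 25 and a mean of at least 50 CPM 10. The 605 variable genes became 302 at a limit of 0.7 and 273 at a mean of at least 50 CPM. Their count rose to 767 with totals without mitochondrial and ribosomal protein genes and to 660 at 5000 UMIs a cell. The 291 genes in nearly all cells became 578 at 95% of cells and 129 at 5000 UMIs a cell. The 69 genes varying together became 250 with all variable genes. The 42 steady genes became 16 in cells with at least 2000 genes and at most 10% mitochondrial UMIs, where 857 and 738 cells remained. There the top 50 genes held 26.5% of UMIs in the HA control and 26.1% in the VPR control, beside 18.8% and 18.8% without mitochondrial and ribosomal genes, 29.2% and 28.5% after subtraction of free RNA, and 29.3% and 28.6% without the deepest 10% of cells. With a pseudocount of 5 CPM 1 gene, S100A7, was 2-fold apart between the controls, and SOSTDC1 had -0.93 (-0.96 in the stricter cells). Doublets of 1 sample were not called.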

Other observations

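Several chemokine and interferon genes averaged under 20 CPM and so were not ranked above, and some had much of their RNA in few cells. IFIT2, an antiviral gene induced by interferon, had 270 UMIs over the 3380 cells of the HA control, and 107 of them (39.6%) lay in 1 cell. The same cell held 61 of the 78 UMIs (78.2%) of CCL5, a T cell-attracting chemokine, 65 of 516 UMIs of IFIT3 and 15 of 38 UMIs of RSAD2, another antiviral gene, and the highest count of ISG15 in any cell (139 of 6621 UMIs). It had 20133 UMIs and 4969 genes, within the range of the other cells. Without it, a view taken after its values were seen, the excess CV of ISG15 in the HA control was 0.728 in place of 1.32. In the VPR control it was 0.651 with all cells.

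Other chemokines were concentrated in few cells of both controls. CCL20, which attracts immature dendritic cells, had an excess CV of 5.404 in the HA control and 6.00 in the VPR control, with a UMI in 5.92% and 4.47% of cells. CXCL1, a chemokine of neutrophils like CXCL8, had 3.76 and 4.44, and CCL2, which attracts monocytes, 12.9 and 14.01. Vimentin, at 9.82 and 9.04 CPM, had 4.66 and 5.57.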
